A study of Mus musculus with 36 samples.

Results

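The effect of Tet1 loss on the control diet was measured in 9 of the 36 brains of the series, 5 homozygous Tet1 knockout (KO) and 4 wild-type (WT) embryos whose dams ate 3 ppm folic acid (FA). The members were taken by the genotype and diet given in the sample titles. The study asked how maternal FA and Tet1 dosage act on the methylome of single E11.5 mouse brains. The diets were excess (30 ppm), control (3 ppm) and depleted (0.1 ppm) FA. The strain label of every embryo was 129S6.cg Tet1<tm1Koh>, and all came from an intercross of heterozygous (HET) parents. All diets also held an antibiotic, succinyl sulfathiazole, which removes folate made by gut bacteria, and WT and KO embryos shared this exposure. The KO group had embryos of litters TP40 (replicates 1 and 2), TP45 (replicate 3), TP42 (replicate 4) and TP57 (replicate 5), and the WT group embryos of TP40 (replicates 1 and 2), TP45 (replicate 3) and TP57 (replicate 4). KO replicates 1 and 3 and WT replicates 2 and 3 were labelled female and the others male. All embryos were labelled norm except KO replicate 4, labelled inHB and listed by the study as a brain malformation, and KO replicate 5, labelled NTD, a neural tube defect. The targeted allele carries an insertion at the start of the full-length coding sequence. A short Tet1 transcript with its own downstream start is not removed by it, so the KO is one of the full-length form. The allele was made on another strain and backcrossed, so sequence near Tet1 on chromosome 10 may differ in strain origin between KO and WT embryos. Of the genes named below Ftcd, Slc19a1, Dnmt3l, Aldh1l2, Slc17a8, Sycp3, Neurog3, Gli1, Apc2 and Jmjd1c are also on chromosome 10.

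TET1 is a dioxygenase that oxidises 5-methylcytosine (5mC) to 5-hydroxymethylcytosine and further products, a first step of DNA demethylation. It is known from embryonic stem cells and the early embryo, where it binds CpG-rich DNA and keeps promoters and enhancers from gaining methylation. In mammalian genomes most CpGs outside CpG islands are methylated, CpG islands at gene starts are not, and enhancers often lie between these states. Oxidative bisulfite sequencing reads only 5mC as cytosine, so a higher level in KO embryos is 5mC and not an oxidised form. Reduced representation (RRBS) libraries cut with MspI and TaqI sample mostly CpG-rich fragments. Whole brains were used, so a shift in the share of methylated cells and a shift within each cell cannot be told apart.

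The 9 libraries held between 25.9 and 197 M CpG calls (M, 1e6), with a mean coverage of 12.1 to 61.5 reads per listed CpG. WT replicate 1 was the deepest and the other 8 libraries had at most 63.4 M calls. CpGs covered at least 5 times in every library numbered 1109980 on the autosomes, and every level below rests on these. Between replicates of a group the chi-square per degree of freedom was 1.59 to 1.95 over tiles, so no library held the same counts as another of its group. Calls of 1 read at neighbouring CpGs are not independent and can raise this value. It therefore does not measure how far embryos differ beyond counting noise. Reads on chromosome Y matched the sex labels in all 9, with 144 to 256 CpGs listed in the embryos labelled female and 1808 to 7450 in those labelled male. HET replicate 1 of the same diet, labelled male, listed 235 and its sex label therefore went against the data.

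Tet1 itself was examined first. The CpG with the largest gain in KO of the 120 measured in or beside Tet1 (chr10:62884019, intronic) had 72.2, 91.7, 72.0, 93.8 and 80% in KO replicates 1 to 5 and 6.80, 7.32, 5.88 and 0% in WT replicates 1 to 4, on 10 to 103 reads. The 3 HET embryos of this diet read 33.3, 30 and 47.4%. KO and WT do not overlap there because the CpG was chosen on these embryos, so it does not check their labels. The HET embryos, which took no part in the choice, lay between both groups. The CpG lies in the 1 kb tile chr10:62884001-62885000, where the levels were 87.0, 91.7, 86.7, 91.4 and 90.8% in the KO embryos and 30.4, 19.8, 27.3 and 38.71% in the WT embryos, a difference of 60.5 points over 3 CpGs (quasi-binomial test, adjusted p = 5.81e-13). The next tile of the same intron differed by 38.57 points (quasi-binomial test, adjusted p = 8.83e-11), with 77.97, 77.95, 76.7, 77.4 and 75.2% in KO and 40.4, 23.4, 43.36 and 46.6% in WT. Of 10 tiles tested in or beside Tet1 these and 1 further intronic tile (chr10:62870001-62871000, 10.1 points) were called higher in KO. Loss of the gene and sequence carried with the targeted allele cannot be told apart in this interval.

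The sequences of 8 short stretches are given first because several of the largest gains and 2 of the losses were measured on them. They are the upper strand of GRCm38.p6 (mm10), 5′ to 3′, with each measured CpG in capitals, and they are named by the gene they lie in or nearest to. On average the first 6 were higher and the last 2 lower in KO embryos.
Tmem233: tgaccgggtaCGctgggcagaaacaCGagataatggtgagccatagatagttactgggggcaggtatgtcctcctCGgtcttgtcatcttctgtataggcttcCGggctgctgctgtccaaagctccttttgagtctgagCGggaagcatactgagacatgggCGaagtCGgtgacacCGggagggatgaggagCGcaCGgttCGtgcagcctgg
Wnt3a: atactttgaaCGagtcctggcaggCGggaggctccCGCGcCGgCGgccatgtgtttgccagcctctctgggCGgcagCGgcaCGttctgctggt
Arhgap23: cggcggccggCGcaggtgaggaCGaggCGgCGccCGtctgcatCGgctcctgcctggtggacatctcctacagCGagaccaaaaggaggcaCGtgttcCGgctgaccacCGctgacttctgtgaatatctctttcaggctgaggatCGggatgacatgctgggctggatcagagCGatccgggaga
Maf: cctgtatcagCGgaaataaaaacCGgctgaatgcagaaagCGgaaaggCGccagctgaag
Col11a2: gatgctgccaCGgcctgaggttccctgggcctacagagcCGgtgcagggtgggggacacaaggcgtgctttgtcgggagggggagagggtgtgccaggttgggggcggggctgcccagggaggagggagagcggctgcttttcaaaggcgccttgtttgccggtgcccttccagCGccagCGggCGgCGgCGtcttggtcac
Acta1: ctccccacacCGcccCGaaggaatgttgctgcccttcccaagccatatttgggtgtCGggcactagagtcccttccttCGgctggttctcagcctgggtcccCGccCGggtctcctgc
Acer2: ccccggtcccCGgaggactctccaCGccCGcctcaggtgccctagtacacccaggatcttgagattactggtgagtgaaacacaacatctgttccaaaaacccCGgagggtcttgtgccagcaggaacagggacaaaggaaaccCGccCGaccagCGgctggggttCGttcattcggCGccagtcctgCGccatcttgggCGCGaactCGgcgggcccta
Gdf3: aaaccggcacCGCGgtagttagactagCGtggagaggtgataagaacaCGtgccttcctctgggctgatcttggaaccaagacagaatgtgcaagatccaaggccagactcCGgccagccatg

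The Tmem233 stretch (chr5:116082951-116083165) overlaps coding sequence of this transmembrane protein gene, centred 186 bp after its start. All 11 measured CpGs were higher in KO, by 53.8 to 69.2 points each. The Wnt3a stretch (chr11:59284316-59284409) is intronic, 6390 bp inside the gene of a secreted WNT ligand, and its 9 CpGs were higher in KO by 47.9 to 74.6 points. In the coding exon of the GTPase-activating protein gene Arhgap23 (chr11:97463496-97463681) 12 CpGs differed by 41.5 to 70.2 points. The intergenic stretch nearest to Maf, a bZIP transcription factor whose start is 349726 bp away (chr8:115358039-115358098), held 4 CpGs with differences of 52.2 to 73.0 points. Upstream of Col11a2, a cartilage collagen gene (chr17:34038493-34038694), and of Acta1, skeletal muscle actin (chr8:123894797-123894914), the measured CpGs differed by 47.2 to 66.7 and by 37.7 to 54.65 points. At every measured CpG of these 6 stretches each KO embryo lay above each WT embryo. The gains were thus shared by neighbouring CpGs and did not come from single positions. In the Acer2 stretch (chr4:86930773-86930992), inside a ceramidase gene, all 13 CpGs were lower in KO on average, by 1.25 to 21.6 points. At 3 of them each KO embryo lay below each WT embryo. Its tile was classed as promoter, since a transcript starts within 1 kb. The Gdf3 stretch (chr6:122609496-122609618) lies near the start of a TGF-beta family ligand of pluripotent cells, and its 5 CpGs ranged from -18.8 to 13.3 points, so they did not move together.

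Brain DNA of KO embryos carried more 5mC overall. The mean level over the 1109980 shared CpGs was 37.6, 38.2, 37.4, 37.7 and 37.1% in the KO embryos and 35.1, 34.6, 34.8 and 34.45% in the WT embryos. Every KO embryo lay above every WT embryo, with 37.6% ± 0.412 (SD, n = 5) against 34.7% ± 0.288 (n = 4), so the means were 2.88 points apart (two-sided exact permutation test, p = 0.00794, the lowest value possible with 5 against 4 embryos). Within litters the difference was 3.08 points in TP40, 2.62 in TP45 and 2.67 in TP57, the litters with both genotypes. The mean of these litter differences was 2.79 points, with an exact within-litter permutation p of 0.0833, the smallest that the pairing by litter can give. When each library was averaged over its own covered CpGs instead of the shared ones, the means were 0.161 points apart (exact permutation p = 0.976). These own means ran from 38.73% in WT replicate 3 to 52.7% in WT replicate 1, the deepest library.

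**Figure D1:**
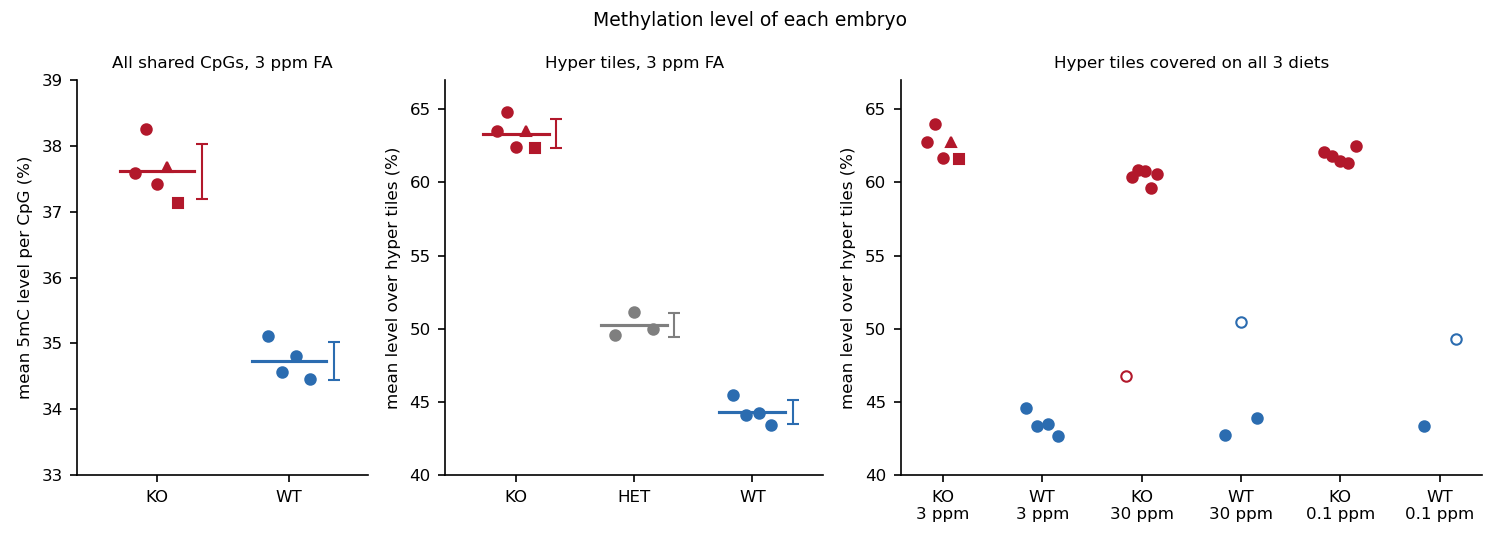
Mean 5mC level of each embryo, as percent on the vertical axes, which do not start at 0. Each point is 1 embryo, horizontal lines are group means and error bars the SD. The triangle is the KO embryo labelled inHB, the square the one labelled NTD, and open circles are the libraries of the other diets that read like HET embryos at the Tet1 CpG. Left, all shared CpGs, where the 5 KO embryos lie between 37.1 and 38.2% and the 4 WT embryos between 34.45 and 35.1%. Middle, hyper tiles, with HET embryos between both groups. Right, the same tiles on the 3 diets. The tiles were called on the 3 ppm KO and WT embryos.

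To localise the gain, CpG calls were summed over 1 kb windows of the autosomes (tiles). A read that spans several CpGs counts at each of them. The 65004 tiles with at least 3 shared CpGs and an SD over embryos of at least 2 points were tested. Tiles whose group means lay at least 10 points apart, with an adjusted p below 0.05, are named hypermethylated (hyper) or hypomethylated (hypo) in KO. The quasi-binomial test called 10591 hyper tiles (16.3% of those tested) and 16 hypo tiles (0.0246%). Every KO embryo lay above every WT embryo in 8724 of the hyper tiles, against 23.0% of all tested tiles, and every KO embryo lay below in 4 of the 16 hypo tiles, against 0.0846% of all tested tiles. limma on logit values called 5 of the 16 hypo tiles and no other. Of all tested tiles 85.8% had a higher mean in KO, and the median difference was 3.76 points over all of them, 16.5 points over hyper and -11.7 points over hypo tiles. Gains of at least 20 points were found in 3576 tiles and gains of at least 40 points in 329. The tile with fewest CpG calls had 15 in its shallowest embryo, and the median hyper tile had 63 there. Over hyper tiles, which these values served to choose, the embryo means were 63.7, 65.0, 62.6, 63.7 and 62.6% in KO and 45.7, 44.3, 44.4 and 43.67% in WT. Over tested tiles that were not called they were 81.5, 82.5, 81.1, 81.6 and 80.4% and 79.0, 77.8, 78.2 and 77.7%, so the groups were also apart there.

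Hyper tiles mostly had partial methylation in WT brains. Of the 10591 tiles, 1436 (13.6%) had a WT mean under 10%, 2035 (19.2%) between 10 and 30%, 4954 (46.8%) between 30 and 70%, and 2166 (20.5%) 70% or more. Between genotypes 2480 of them crossed 50%, and 33 went from under 10% to over 50%. The median WT level was 48.2% in hyper tiles and 87.5% in tested tiles that were not called. A tile near full methylation in WT cannot gain 10 points, and the same WT embryos served for the calls. Part of this contrast thus follows from the rule. Of the tested tiles, 27.1% of the hyper ones lay within 5 kb of a gene start, against 14.3% of those not called. At least 50% repeat sequence was held by 2.12% and 16% of them. These shares rest on tiles past the SD filter, which a difference between KO and WT helps a tile to pass. Over all tiles 9.47% of promoter and 11.95% of intergenic tiles were hyper, so nearness to genes is not read from the filtered shares. Hyper tiles also lay beside each other. Where the next tile downstream was tested, it was hyper after 735 of 1548 hyper tiles (47.5%) and after 16.4% of tiles that were not hyper. The share of hyper tiles was between 12.2% and 20.5% on every autosome, highest on chromosome 11 and lowest on chromosome 18.

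Levels were then compared by class of tile, with 1 mean per embryo and classes set by annotation, CpG number or the WT embryos of the other diets, which are no part of the comparison. In tiles that those embryos held between 10 and 30%, the levels were 34.03, 36.1, 33.4, 33.9 and 33.1% in the KO embryos and 18.5, 17.4, 17.5 and 16.7% in the WT embryos. The groups were far apart there, with a difference of 16.6 points, and 63.0% of the tiles of that class were hyper. In tiles at 30 to 70% the difference was 12.8 points, in tiles at 70% or more 3.12 points, and in tiles under 10% 1.58 points. Hyper tiles made up 50.6%, 5.00% and 4.24% of these classes. The gain was 11.2 points larger at 30 to 70% than under 10% (exact permutation test of the difference, p = 0.00794, adjusted p = 0.0106 over 4 contrasts). The WT mean of the class at 70% or more was 87.9%, which leaves less room below 100% than the 12.8 points gained at 30 to 70%, so the direction of their difference was fixed by the scale and is not tested here. Of the 5 WT libraries that set these classes, WT replicate 2 of each other diet read like HET embryos at the Tet1 CpG. With classes set by the other 3, the differences were 16.7 points at 10 to 30%, 12.2 at 30 to 70%, 2.99 at 70% or more and 1.86 under 10% (exact permutation p = 0.00794 each). By annotation the difference was 3.15 points in promoters, 5.10 in exons, 4.88 in introns and 4.38 in intergenic tiles. The promoter class was lower than the intergenic one by 1.23 points (exact permutation p = 0.0159). By CpG number the gain was 4.55 points in tiles with under 20 CpGs in the genome, 4.94 with 20 to 49 and 1.03 with 50 or more. The densest class gained 3.52 points less than the poorest (exact permutation p = 0.00794). Every KO embryo lay above every WT embryo in all 11 classes (exact permutation p = 0.00794 each, the smallest possible). The permutations of classes and contrasts ran across litters, and an exact permutation within litters can give no p below 0.0833.

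**Figure D2:**
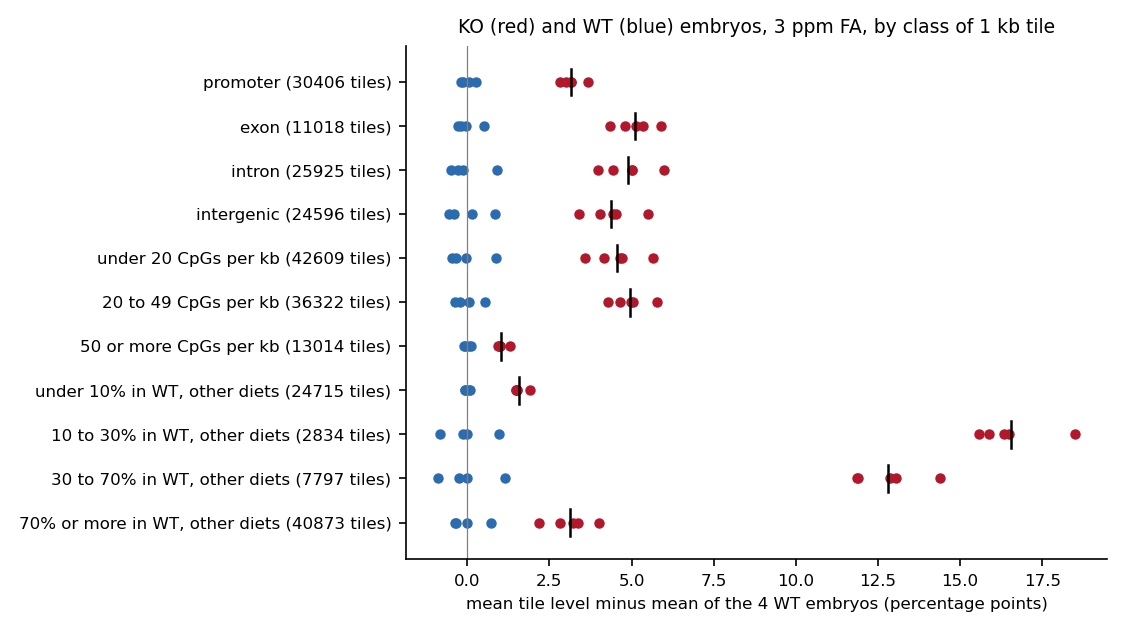
Mean level of each embryo in classes of 1 kb tiles, as percentage points above the mean of the 4 WT embryos on the horizontal axis. Each point is 1 embryo, KO red and WT blue, and each row a class by gene annotation, CpGs per tile or the level of WT embryos on the other diets. KO points sit farthest to the right at 10 to 30% and 30 to 70%, with differences of 16.6 and 12.8 points, and nearest to WT in tiles with 50 or more CpGs, with 1.03 points.

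Hyper tiles made up 9.47% of all tiles in promoters, 11.95% in intergenic sequence, 12.54% in introns and 13.80% in exons, which is the order of the mean gains. By CpG number they were 2.597% of tiles with 50 or more CpGs, 11.41% with under 20 and 14.85% with 20 to 49, again in that order. Among the tiles that passed the SD filter the shares were 25.1% in promoters, 17.1% in exons, 14.1% in introns and 13.7% in intergenic sequence, and 26.9% with 50 or more CpGs, 22.1% with 20 to 49 and 12.4% with under 20. A difference between KO and WT helps a tile to pass that filter, and most tiles of promoters and of the densest class did not pass it, so no order is read from these shares. Around the starts of protein-coding genes the level fell to 1.81% in WT and 2.45% in KO within 500 bp downstream, a difference of 0.635 points. It was 0.688 points in the 500 bp upstream, 1.65 points at 0.5 to 1 kb and up to 4.23 points at 2.5 to 3 kb downstream. All 5 KO embryos lay above all 4 WT embryos in each of the 20 bins between -5 and 5 kb. Sequence next to gene starts thus had the smallest gain in points and the flanks a larger one.

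**Figure D3:**
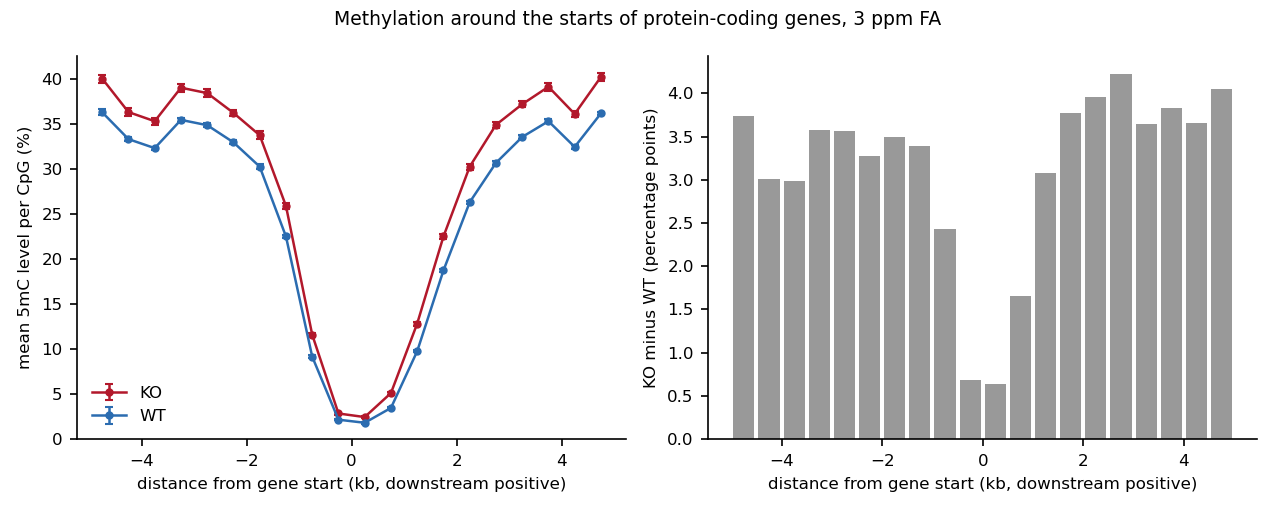
Mean 5mC level around the starts of protein-coding genes, in 20 bins of 500 bp from -5 to 5 kb. Left, KO and WT means with the SD over embryos as bars, in percent. Right, KO minus WT in percentage points. The difference falls to 0.635 points after the start and reaches 4.23 points at 2.5 to 3 kb.

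Named tiles are the 20 largest gains in which no WT embryo reached the lowest KO embryo, at most 1 per gene, so that direction and non-overlap follow from the rule. The largest lay in the zinc finger gene Zfp467 (chr6:48439001-48440000), with 96.4, 82.4, 84.2, 78.7 and 91.1% in the KO embryos and 11.4, 16.2, 7.88 and 12.1% in the WT embryos. The gain was 74.7 points over 7 CpGs and 85 to 959 CpG calls per embryo (quasi-binomial test, adjusted p = 4.2e-18), and HET embryos read 22.5, 39.6 and 28.5%. KO embryos were mostly methylated there and WT embryos mostly unmethylated. In the Wnt3a intron shown above the tile held 82.0, 79.8, 68.6, 74.6 and 81.3% in the KO embryos and 18.9, 18.4, 21.6 and 14.5% in the WT embryos. It gained 58.9 points (quasi-binomial test, adjusted p = 9.99e-18), and HET embryos were at 28.1, 38.62 and 41.7%, above WT and far from KO. Intergenic DNA near Maf had 90.1, 81.9, 87.2, 81.4 and 80% in the KO embryos and 18.7, 17.5, 25 and 19.3% in the WT embryos, a gain of 64.0 points (quasi-binomial test, adjusted p = 1.73e-16). At the coding exon of Arhgap23 the values were 73.9, 80.7, 74.8, 81.7 and 73.9% in the KO embryos and 19.7, 20.1, 19.9 and 17.6% in the WT embryos. They rose by 57.7 points (quasi-binomial test, adjusted p = 2.57e-20), with a spread within groups of 3.86 and 1.18 points.

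Start-proximal tiles were among the same 20. The Tmem233 tile had 65.1, 64.4, 76.0, 70.9 and 66.7% in the KO embryos and 7.73, 7.03, 12.4 and 4.36% in the WT embryos, a gain of 60.7 points (quasi-binomial test, adjusted p = 4.3e-19). Upstream of Col11a2 the tile had 71.7, 67.7, 68.9, 58.3 and 64.1% in the KO embryos and 9.10, 7.17, 8.88 and 7.74% in the WT embryos, a gain of 57.9 points (quasi-binomial test, adjusted p = 2.9e-19). At Sycp2l, a germline gene related to the synaptonemal complex protein SYCP2, the tile across the start had 90.3, 89.4, 89.6, 86.3 and 88.3% in the KO embryos and 24.0, 23.5, 30.7 and 29.1% in the WT embryos, a gain of 62.0 points (quasi-binomial test, adjusted p = 1.23e-20). In all 3 the WT embryos kept levels under 31% and the KO embryos exceeded 58%. An intergenic tile whose nearest gene was Larp1, of an RNA-binding protein, had 68.6, 74.3, 55.6, 65.2 and 71.6% in the KO embryos and 9.35, 9.92, 5.91 and 7.43% in the WT embryos. HET embryos were at 9.84, 7.89 and 8.54% there, inside or next to the WT range, although the KO gain was 58.9 points (quasi-binomial test, adjusted p = 5.69e-16). The other members gained 56.7 to 64.4 points. They lay in exons of Atp8b1, a phospholipid flippase gene, of Dmtn, an actin-bundling protein of the red cell skeleton, of Dqx1, a helicase-like gene, of Spatc1, a spermatogenesis gene, and of Evpl, a cornified envelope protein. Further ones lay in Tet1, in Myo15, a hair cell myosin, and in the keratin gene Krt79. Others were nearest to the olfactory receptor gene Olfr153, the sulfotransferase gene Chst2 and C2cd4b. The last was nearest to Gm26897, whose start is 210558 bp away.

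**Figure D4:**
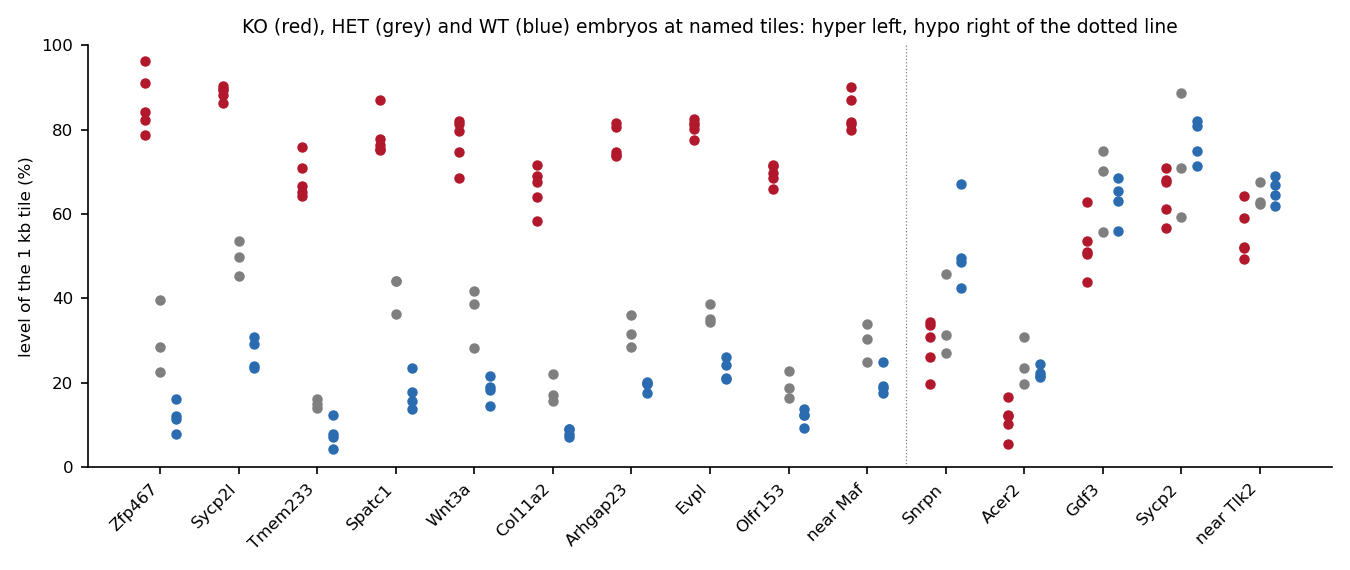
Level of each embryo at named 1 kb tiles, in percent. Each point is 1 embryo, KO red, HET grey and WT blue, with hyper tiles left and hypo tiles right of the dotted line. KO and WT do not overlap at the hyper tiles, which the rule required, and HET points lie nearer to WT there. Of the hypo tiles shown, KO and WT overlap at Gdf3 and near Tlk2 and do not at Snrpn, Acer2 and Sycp2.

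Losses were few, and the 4 hypo tiles without overlap were those at Snrpn, Sycp2, Acer2 and Itln1. The largest was in the Snrpn locus (chr7:60005001-60006000), at the start of Snurf, an imprinted gene whose start region is methylated on the maternal copy. Its tile had 30.9, 26.0, 33.6, 19.7 and 34.4% in the KO embryos and 49.5, 42.4, 48.7 and 67.1% in the WT embryos, and HET embryos 31.2, 27.1 and 45.75%. All KO embryos lay below all WT embryos, by 23.0 points on average (quasi-binomial test, adjusted p = 1.33e-05), over 10 CpGs. The fewest reads in any embryo were 5 to 13 at these CpGs. Within an embryo many of them held the same fraction, such as 30.8% in KO replicate 1 and 66.7% in WT replicate 4. Their calls may thus repeat each other, and the adjusted p may overstate the evidence. The call of this tile held when any 1 embryo was left out. In embryos of the other diets the same tile ranged from 12.8 to 62.6% in KO and from 12.6 to 52.4% in WT, so the genotypes overlapped there. At Sycp2, which encodes a synaptonemal complex protein, the tile at the start had 67.5, 56.6, 68.2, 70.9 and 61.2% in the KO embryos and 82.0, 71.5, 75.0 and 80.9% in the WT embryos, -12.5 points (quasi-binomial test, adjusted p = 0.000825). With limma the adjusted p of the Sycp2 tile was 0.0540, so it was not called. The Acer2 tile had 5.31, 10.2, 12.3, 12.1 and 16.5% in the KO embryos and 21.5, 22.3, 21.4 and 24.5% in the WT embryos, -11.1 points (quasi-binomial test, adjusted p = 4.07e-05). Itln1, an intelectin gene, had 84.6, 87.0, 80, 79.2 and 70.8% in KO and 92.3, 89.2, 94.4 and 92.0% in WT, -11.7 points (quasi-binomial test, adjusted p = 0.0332), and its adjusted p rose above 0.05 in 8 of the settings tried. In embryos of the other diets KO and WT overlapped at these 3 tiles too, with 53.8 to 81.7% in KO and 71.2 to 81.4% in WT at Sycp2, 4.69 to 28.2% and 14.7 to 32.0% at Acer2, and 85.96 to 100% and 83.1 to 94.4% at Itln1. At Gdf3 KO embryos had 53.5, 62.9, 43.8, 50.9 and 50.54% and WT embryos 68.6, 63.1, 56.0 and 65.5%, which overlap, -10.9 points (quasi-binomial test, adjusted p = 0.00199). Without WT replicate 1 the Gdf3 tile differed by -9.17 points (quasi-binomial test, adjusted p = 0.0603), and with limma on all embryos its adjusted p was 0.140. The tile in Reep3 nearest to Jmjd1c (chr10:67083001-67084000, -13.8 points) and the Apc2 tile are on the chromosome of Tet1, where strain origin may differ. The other 10 hypo tiles fell by 10.2 to 16.8 points and their groups overlapped. They lay in or near Klra17, Trps1, Chka, Kcnv1, Sult6b2, Srcin1, Vmn2r99, Myo3a, Apc2 and Tlk2. Without the embryos labelled inHB and NTD, on the same CpGs, the difference was -8.97 points at the tile nearest to Jmjd1c and -2.97 near Vmn2r99, and 8 of the 16 kept their call. At Sycp2 it was -13.2 points on the same CpGs and -7.41 with the shared CpGs chosen anew over the other 7 embryos. Without KO replicate 2 the difference was -6.12 near Apc2. Without KO replicate 3 it was -5.72 at the Myo3a tile nearest to Gad2. With litter as a block the adjusted p of the quasi-binomial test was 0.128 near Trps1, 0.113 near Chka, 0.175 near Kcnv1, 0.0846 near Vmn2r99 and 0.0759 near Itln1.

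One value per gene was then obtained from the promoter, 1 kb to either side of the start of each protein-coding autosomal gene, and 13145 of 20780 genes had at least 3 shared CpGs there. The quasi-binomial test called 674 hyper promoters (5.13%), on 662 distinct sets of CpGs, and 4 hypo promoters (0.0304%). Every KO embryo was above every WT embryo in 617 of the hyper promoters, against 20.3% of all tested promoters. The median difference was 0.253 points over all promoters and 17.4 points over the hyper ones, 263 gained at least 20 points, 32 at least 40, and 141 crossed 50%. Promoters at 10% or more in WT were called more often, 434 of 1437 (30.2%), than those under 10%, 240 of 11708 (2.05%). Over all promoters the embryo means were 9.03, 9.44, 8.97, 8.93 and 8.91% in the KO embryos and 7.26, 7.04, 7.17 and 7.03% in the WT embryos. Most calls thus came from promoters at 10% or more in WT.

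The 20 largest promoter gains, again with non-overlap required by the rule, ran from 44.3 to 61.2 points, led by Tmem233, Sycp2l and Col11a2. At Spaca1, which encodes an acrosome membrane protein of sperm, the promoter had 75.8, 67.3, 73.8, 76.1 and 74.3% in the KO embryos and 18.4, 9.42, 21.7 and 24.6% in the WT embryos, a gain of 54.9 points (quasi-binomial test, adjusted p = 6.41e-12). The promoter of Prm2, a protamine that packs sperm DNA, had 72.5, 76.5, 68.3, 66.6 and 63.5% in the KO embryos and 18.7, 17.5, 21.8 and 17.4% in the WT embryos, a gain of 50.6 points (quasi-binomial test, adjusted p = 2.07e-14). Both went from under 25% to over 63%. At Trim58, a ubiquitin ligase of red cell precursors, the values were 57.6, 66.2, 56.8, 55.2 and 68.8% in the KO embryos and 5.95, 7.83, 9.04 and 7.26% in the WT embryos, a gain of 53.4 points (quasi-binomial test, adjusted p = 4.7e-15). Lhcgr, the receptor of luteinising hormone, had 71.2, 79.4, 65.7, 75.1 and 67.5% in the KO embryos and 20.8, 13.6, 26.5 and 17.3% in the WT embryos, a gain of 52.2 points (quasi-binomial test, adjusted p = 5.6e-13). WT embryos were below 10% at the first and below 27% at the second. The transporter gene Slc46a2 gained 51.1 points, with 66.7, 74.6, 84.0, 81.7 and 84.0% in the KO embryos and 28.9, 18.7, 28.7 and 32.1% in the WT embryos (quasi-binomial test, adjusted p = 9.98e-11). The others were Hhatl, Calhm2, Nipsnap3a, the desmosomal cadherin Dsc3, the G protein subunit Gnb3, Stpg4, C1qtnf5, Sgo2b, Acta1, Krtap17-1, Spag8 and Siah3. The 4 hypo promoters were those of Snurf and the overlapping Gm38393, which share their CpGs (-18.2 points), Sycp2 (-12.5 points) and Gdf3 (-10.9 points). Without the embryos labelled inHB and NTD, with shared CpGs chosen anew, the Snurf and Gm38393 promoters differed by -6.73 points (quasi-binomial test, adjusted p = 0.0917) and no hypo promoter was called, with 43 promoters lower at an unadjusted p under 0.05. On the CpGs of all 9 embryos, without the same embryos, both differed by -17.3 points (quasi-binomial test, adjusted p = 0.000691) and 3 hypo promoters were called. limma gave 3 with all 9 embryos, and its adjusted p at the Gdf3 promoter was 0.139. Without WT replicate 1 the Gdf3 promoter had an adjusted p of 0.0926 (quasi-binomial test).

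Genes of brain development were examined by lists, counted over promoters and over tiles inside the genes. Over all genes 5.13% of promoters and 16.4% of gene-body tiles (5769 of 35189) were hyper. Beside the 3 largest promoter calls of each list, gene-body tiles are named that were chosen after their values were seen. No promoter was called by the quasi-binomial test or by limma in the lists of neural tube closure (43 tested), Sonic hedgehog (18), Hox (35), brain patterning (48) or proneural and progenitor genes (28). At an unadjusted p under 0.05, 8, 5, 14, 8 and 6 of them were higher in KO and 0 lower, against 4270 higher (32.5%) and 80 lower over all promoters. All of these tested promoters were under 10% in WT, and the largest differences were 2.59 points at Dvl2, 3.78 at Hhat, 7.78 at Hoxb8, 2.95 at Pax8 and 4.52 at Neurog3. Of all promoters under 10% in WT 2.05% were hyper.

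Inside these genes the share of hyper tiles ran from 6 of 70 (8.57%) in Sonic hedgehog to 3 of 10 in proneural and progenitor genes, against 16.4% of all gene-body tiles. In neural tube closure genes it was 24 of 177 (13.6%). An intronic tile of Shroom3, an actin-binding protein that bends the neural plate, had 70, 66.7, 54.2, 70.4 and 46.7% in the KO embryos and 21.3, 15.7, 16.7 and 13.9% in the WT embryos, a gain of 44.7 points (quasi-binomial test, adjusted p = 4.02e-07). KO and WT embryos did not overlap there. Grhl3, an epithelial transcription factor needed for spinal closure, gained 23.0 points and Vangl2, a planar cell polarity protein, 22.6 points in an intron. Of the tiles in brain patterning genes 15 of 76 (19.7%) were hyper. The homeobox gene Gbx1 had 41.5, 52.6, 50.9, 43.1 and 47.8% in the KO embryos and 12.03, 11.7, 13.1 and 12.4% in the WT embryos in an exon, a gain of 34.9 points (quasi-binomial test, adjusted p = 2.1e-14). Lhx2, a LIM homeobox gene of the forebrain, rose by 32.7 points and Pax5, a midbrain-hindbrain factor, by 32.5 points in introns. In proneural and progenitor genes 3 of 10 tiles were hyper, 2 of them in Nhlh1, a bHLH factor of young neurons, with 42.06, 31.9, 24.9, 32.2 and 26.9% in KO and 4.37, 2.62, 3.41 and 4.38% in WT at the first, and 1 in the Notch effector Heyl with a gain of 21.8 points. In Hox genes 2 of 14 tiles were hyper, at Hoxb3 (14.9 points) and Hoxa7 (10.2 points). With limma the adjusted p of the Hoxa7 tile was 0.0605.

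Signalling genes are given by role. Among WNT genes 1 of 51 promoters was called, that of the ligand Wnt8a, with 82.5, 77.9, 84.9, 85.4 and 83.2% in the KO embryos and 59.3, 61.3, 61.4 and 67.8% in the WT embryos, a gain of 20.3 points (quasi-binomial test, adjusted p = 2.8e-08). Within the genes 44 of 192 tiles (22.9%) were hyper. Beside Wnt3a, the ligand Wnt5a gained 31.5 points and Axin2, a feedback inhibitor and target of the pathway, 30.4 points. In the Sonic hedgehog list 6 of 70 tiles (8.57%) were hyper. An exonic tile of the ligand Shh had 16.7, 25, 42.5, 23.8 and 23.1% in the KO embryos and 7.65, 5.75, 8.05 and 8.54% in the WT embryos, a gain of 18.7 points (quasi-binomial test, adjusted p = 9.88e-06), the inhibitor Hhip gained 22.9 points and the effector Gli1 27.9 points. WT levels were under 9% at the first of these. In axon guidance genes the promoter of Sema4a, a membrane-bound semaphorin, was the 1 call of 62 (21.9 points), and 82 of 412 tiles (19.9%) were hyper. The semaphorin gene Sema5b had a tile of 47 CpGs with 59.3, 72.7, 67.3, 56.9 and 63.6% in the KO embryos and 16.5, 15.7, 17.2 and 13.7% in the WT embryos, a gain of 48.2 points (quasi-binomial test, adjusted p = 4.06e-20). Epha8, an ephrin receptor, had 71.4, 84.1, 74.5, 69.3 and 76.9% in KO and 28.9, 32.7, 35.0 and 31% in WT in an intron, a gain of 43.3 points (quasi-binomial test, adjusted p = 8.93e-14).

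The muscle and mesoderm list had 5 of 36 promoters hyper (13.9%), against 5.13% of all promoters. Of the 36, 26 were under 10% in WT, where 2.05% of all promoters were hyper, against 30.2% at 10% or more. The list was drawn up with terms known from the same samples, so its count is not independent evidence. Acta1 had 73.9, 81.0, 76.0, 70.6 and 79.7% in the KO embryos and 29.1, 30.3, 34.8 and 31.7% in the WT embryos, a gain of 44.8 points (quasi-binomial test, adjusted p = 1.31e-12). The somite homeobox gene Meox1 had 61.2, 52.2, 54.9, 57.1 and 59.8% in the KO embryos and 25, 21.9, 22.8 and 23.6% in the WT embryos, a gain of 33.7 points (quasi-binomial test, adjusted p = 8.59e-12). Neither overlapped between the groups. Casq2, the calcium-binding protein of heart muscle, gained 22.5 points, Mesp2, a bHLH factor of somite borders, 18.8 points and Myod1, the muscle determination factor, 11.6 points. Within these genes 32 of 173 tiles (18.5%) were hyper. The mesoderm factor T had an exonic tile with 70.5, 65.6, 79.4, 69.4 and 63.8% in the KO embryos and 21.6, 22.6, 14.4 and 19.4% in the WT embryos, a gain of 50.2 points (quasi-binomial test, adjusted p = 3.2e-14). The embryonic myosin gene Myh3 and the heart factor Tbx5 gained 41.81 and 41.79 points in introns.

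Germline genes that are silenced by promoter methylation in the body had a median WT level of 80.7% over 39 tested promoters, and 9 were hyper (23.1%) and 1 hypo. Only 3 of the 39 were under 10% in WT, and of all promoters at 10% or more 30.2% were hyper. Beside Spaca1, Sycp3, a synaptonemal complex protein, rose by 22.6 points, with 82.0, 80.7, 75.7, 80.1 and 83.2% in the KO embryos and 62.0, 56.2, 60.6 and 52.0% in the WT embryos (quasi-binomial test, adjusted p = 1.52e-07). Tdrd6, a Tudor protein of male germ cells, had 23.7, 27.7, 23.3, 26.0 and 26.4% in KO and 10.3, 9.96, 9.43 and 9.84% in WT, a gain of 15.5 points (quasi-binomial test, adjusted p = 1.74e-13). The meiotic genes Mei1 and Msh4, the Tudor and helicase genes Tdrd1 and Ddx4, Adad1 and Zfp42 gained 10.5 to 14.7 points, and Sycp2 was the loss. Among pluripotency genes 3 of 19 promoters were hyper and 1 was hypo, against 5.13% and 0.0304% of all promoters. Of the 19, 12 were under 10% in WT. Lefty1, an inhibitor of NODAL signalling, had 56.4, 42.2, 55.3, 55.2 and 53.2% in the KO embryos and 14.3, 22.7, 16.3 and 11.4% in the WT embryos, a gain of 36.27 points (quasi-binomial test, adjusted p = 5.49e-10). The nuclear receptor gene Esrrb had 33.3, 38.596, 18.3, 53.3 and 27.3% in the KO embryos and 15.7, 15.2, 14.3 and 17.5% in the WT embryos, a gain of 18.5 points (quasi-binomial test, adjusted p = 0.00534). That promoter had 3 measured CpGs. Zfp42, a marker of pluripotent cells, gained 11.5 points (adjusted p = 0.0391 in the quasi-binomial test) with overlapping groups, and its adjusted p rose above 0.05 in 8 settings, among them without any 1 of KO replicates 1 to 4 and WT replicates 2 and 3. With litter as a block it was 0.0767 (quasi-binomial test). The hypo promoter was Gdf3. Inside pluripotency genes 12 of 46 tiles were hyper (26.1%), and inside germline genes 11 of 79 (13.9%), against 16.4% of all gene-body tiles.

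Genes of the methylation machinery had 1 hyper promoter of 18 (5.56%, against 5.13% of all promoters). It was that of Dnmt3l, a cofactor of the de novo methyltransferases, with 74.7, 71.4, 75.2, 81.1 and 80.7% in the KO embryos and 66.3, 66.5, 67.4 and 61.1% in the WT embryos, a gain of 11.3 points (quasi-binomial test, adjusted p = 0.00314). Without the embryos labelled inHB and NTD the promoter of Dnmt3l gained 8.46 points and missed the threshold (quasi-binomial test, adjusted p = 0.0958). Within these genes 10 of 48 tiles (20.8%) were hyper. Smug1, a uracil-DNA glycosylase, had an exonic tile with 63.2, 68.8, 68.8, 70.6 and 73.2% in the KO embryos and 21.4, 21.6, 28.7 and 26.3% in the WT embryos, a gain of 44.4 points (quasi-binomial test, adjusted p = 7.56e-17). Tet3, a relative of Tet1, gained 33.4 points in an exon (57.1, 48.6, 44.8, 54.0 and 52.6% in KO, 20.1, 17.5, 11.8 and 22.7% in WT).

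Genes of folate and one-carbon metabolism had 4 of 41 promoters hyper (9.76%), against 5.13% of all promoters. Of the 41, 34 were under 10% in WT, where 2.05% of all promoters were hyper, against 30.2% at 10% or more. Aldh1l2, a mitochondrial formyltetrahydrofolate dehydrogenase, had 32.7, 20.4, 21.3, 28.2 and 28.6% in the KO embryos and 8.76, 10.1, 6.58 and 4.98% in the WT embryos, a gain of 18.6 points (quasi-binomial test, adjusted p = 5.94e-09). Bhmt2, a methyltransferase for homocysteine, and Dmgdh, dimethylglycine dehydrogenase, start beside each other and share their CpGs, with 15.5, 34.9, 20.9, 22.5 and 24.5% in the KO embryos and 8.06, 9.46, 8.55 and 7.47% in the WT embryos, a gain of 15.3 points (quasi-binomial test, adjusted p = 4.99e-08). KO replicate 2 was the highest there, and no KO embryo reached into the WT range. Gcsh, of the glycine cleavage system, gained 10.9 points (quasi-binomial test, adjusted p = 3.54e-11) from 6.21% in WT. Inside these genes 9 of 73 tiles (12.3%) were hyper, against 16.4% of all gene-body tiles. Ftcd, a folate-dependent enzyme of histidine breakdown, had an exonic tile with 73.0, 84.1, 76.8, 80.9 and 78.8% in the KO embryos and 29.4, 31.1, 25.8 and 32.6% in the WT embryos, a gain of 48.999 points (quasi-binomial test, adjusted p = 8.95e-15). Slc19a1, the reduced folate carrier, had 39.5, 48.6, 44.7, 58.3 and 54.4% in the KO embryos and 18.7, 22.3, 21.2 and 24.6% in the WT embryos in a tile 1939 bp inside the gene, a gain of 27.4 points (quasi-binomial test, adjusted p = 1.81e-06). It had 3 measured CpGs. WT embryos were at or under 25% there and KO embryos above 39%. All embryos ate the same FA, so no effect of FA can be read from these values.

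Channel and transporter families held a share of hyper promoters above the 5.13% of all promoters in counts alone. Under 10% in WT were 62 of 72 potassium channel and 223 of 256 solute carrier promoters. Of all promoters under 10% 2.05% were hyper, and of those at 10% or more 30.2%. The shares of the families were not adjusted for WT level. Potassium channel genes had 12 of 72 hyper (16.7%). Kcnab1, a regulatory beta subunit, had 39.8, 36.5, 46.2, 43.5 and 46.0% in the KO embryos and 2.75, 1.199, 1.99 and 1.89% in the WT embryos, a gain of 40.47 points (quasi-binomial test, adjusted p = 1.39e-14). The auxiliary subunit Kcne1 had 66.7, 66.1, 64.3, 68.9 and 69.5% in the KO embryos and 34.2, 31.6, 38.1 and 35.18% in the WT embryos, a gain of 32.3 points (quasi-binomial test, adjusted p = 1.94e-11). The first was unmethylated and the second partly methylated in WT. Kcna5, a voltage-gated subunit, gained 23.5 points, but 0.723 points when only 500 bp to either side of the start were taken, so its gain lay in the flank. Inside these genes 65 of 262 tiles (24.8%) were hyper, among them 1 in Kcnip3, a calcium-binding channel partner (42.8 points). Solute carrier genes had 19 of 256 promoters hyper (7.42%) and 119 of 725 tiles (16.4%), the latter against 16.4% of all gene-body tiles. After Slc46a2, Slc17a8, a vesicular glutamate transporter, had 68.5, 76.0, 75.6, 77.1 and 60.3% in the KO embryos and 33.3, 36.67, 39.8 and 39.7% in the WT embryos, a gain of 34.12 points (quasi-binomial test, adjusted p = 2.66e-08). Slc47a1, a drug and toxin exporter, gained 33.3 points from 5.31% in WT (quasi-binomial test, adjusted p = 1.27e-11).

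Zfp genes had 11 of 279 promoters hyper (3.94%), led by Zfp648 (28.1 points), Zfp108 (25.5 points) and Zfp488 (22.1 points), and 61 of 432 tiles (14.1%). Over all genes 5.13% of promoters and 16.4% of gene-body tiles were hyper. Beside the tile named above, a second tile of Zfp467 (chr6:48438001-48439000) with 36 CpGs had 81.9, 84.4, 81.4, 90.3 and 83.5% in the KO embryos and 18.97, 22.3, 24.6 and 19% in the WT embryos, a gain of 63.1 points (quasi-binomial test, adjusted p = 1.89e-22). In the clustered protocadherin genes, whose promoters are chosen at random in single neurons, 2 of 28 promoters were hyper, Pcdhac1 (24.7 points) and Pcdhga1 (13.4 points). Their gene bodies overlap, so that their 4 hyper tiles of 70 were counted for many genes at once.

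Marker genes of the cell types in a whole brain were read in the same way. Of all promoters 5.13% were hyper, and 32.5% were higher in KO at an unadjusted p under 0.05 (quasi-binomial test). None of 11 neural progenitor and neuron marker promoters was called by the quasi-binomial test or limma, with 1 higher at an unadjusted p under 0.05. All 11 were under 10% in WT and their differences lay between -0.327 and 0.629 points. Of 3 tested blood cell promoters none was called by either test, with 1 higher at an unadjusted p under 0.05. Among 9 endothelial promoters Eng, a coreceptor of TGF-beta, had 77.2, 73.2, 68.8, 80.2 and 71.5% in the KO embryos and 39.7, 38.4, 46.6 and 39.4% in the WT embryos, a gain of 33.2 points (quasi-binomial test, adjusted p = 1.47e-10). Among 10 mesenchyme and neural crest promoters Sox10, a neural crest factor, gained 28.5 points, with 87.6, 86.5, 83.8, 81.3 and 87.1% in KO and 57.04, 55.7, 61.8 and 52.2% in WT, and the receptor gene Pdgfrb 10.3 points. Inside the marker genes 18 of 68 neural tiles (26.5%), 6 of 28 blood tiles (21.4%) and 3 of 72 endothelial tiles (4.17%) were hyper. So were 6 of 27 mesenchyme and neural crest tiles (22.2%), against 16.4% of all gene-body tiles. Of the 18 neural tiles 17 lay in Rbfox3. Rbfox3, which encodes the neuronal nuclear protein NeuN, had an intronic tile with 78.4, 66.7, 79.4, 73.1 and 76.5% in the KO embryos and 30.9, 36.05, 40 and 16.3% in the WT embryos, a gain of 44.0 points (quasi-binomial test, adjusted p = 3.23e-08). Spi1, a factor of blood cells, gained 29.3 points in 1 tile. A part of cell composition in the gains was not tested, since methylation of markers does not count cells.

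**Figure D5:**
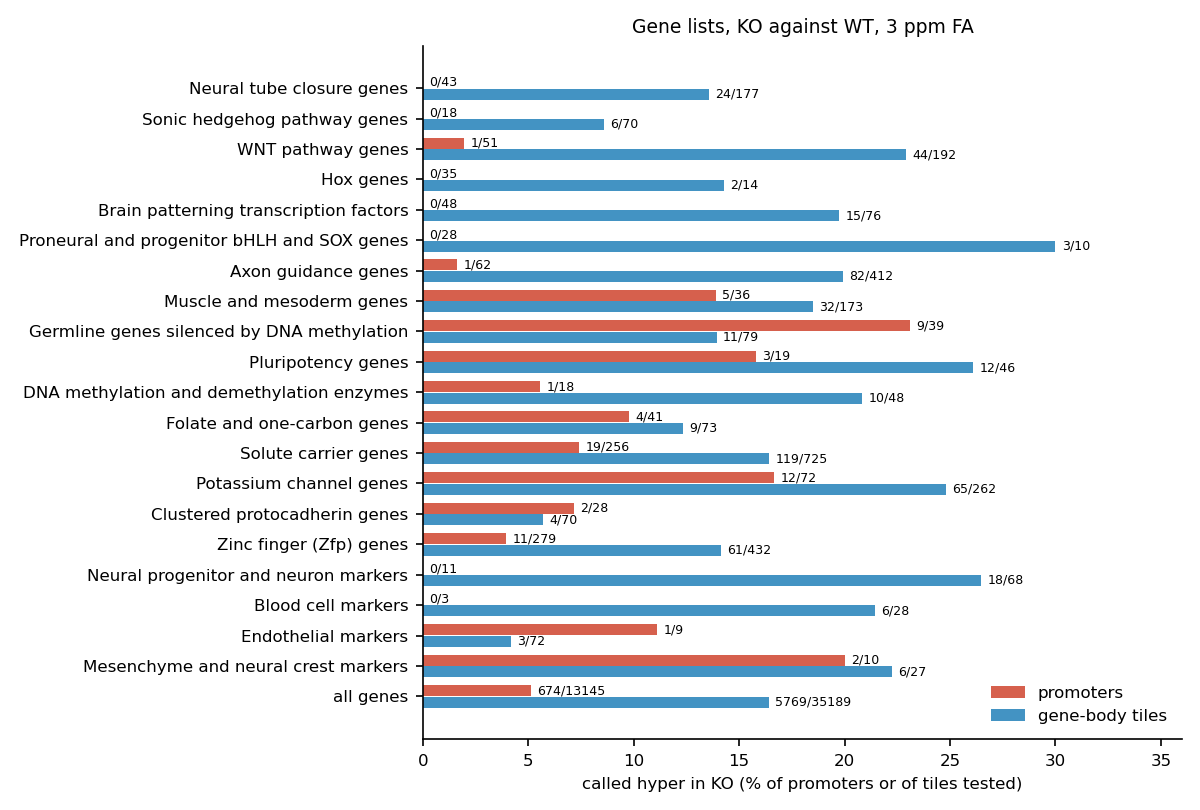
Share of promoters (red) and of gene-body tiles (blue) called hyper in KO for each gene list, in percent of those tested, with all genes in the last row. Promoter bars run from 0% in the lists of brain development to 23.1% in germline genes, against 5.13% of all promoters, 2.05% of those under 10% in WT (all of the brain lists at 0%) and 30.2% of those at 10% or more (all but 3 of 39 germline promoters), and gene-body bars from 4.17% to 30.0%, against 16.4%.

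Related embryos were then read at the tiles called here. Over the 10186 hyper tiles also covered in the 3 HET embryos of the same diet, HET levels were 49.6, 51.1 and 49.97%, against 43.44 to 45.4% in WT and 62.4 to 64.8% in KO. All HET embryos lay between the groups and nearer to WT. The KO embryos labelled inHB and NTD read 63.5 and 62.4%, inside or beside the 62.4 to 64.8% of the KO embryos labelled norm. With only the latter and the shared CpGs chosen anew, 11434 of 74977 tested tiles were hyper, and 9105 of the 10591 kept their call. On the CpGs of all 9 embryos 10131 of 63414 tested tiles were hyper, against 10591 of 65004 in the main test. In the litters with both genotypes, hyper tiles differed by 19.3 points in TP40, 18.2 in TP45 and 18.9 in TP57.

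The KO and WT embryos of the 30 and 0.1 ppm diets share no embryo with the comparison and were used to read the same tiles again. KO replicates 1 to 4 of 30 ppm and 2 to 4 of 0.1 ppm were labelled inHB or NTD. Among WT embryos only replicate 2 of 0.1 ppm was (inHB), so genotype and malformation go partly together here. Over 8823 hyper tiles covered in all of them, the 11 KO embryos had 46.8 to 62.5% (median 60.8%) and the 5 WT embryos 42.8 to 50.4% (median 43.9%). The mean difference within diets was 13.97 points (two-sided exact permutation test within diet, p = 0.00113). On 30 ppm alone it was 12.5 points (6 against 3 embryos, exact permutation p = 0.0238) and on 0.1 ppm alone 15.5 points (5 against 2, exact permutation p = 0.0476, the smallest possible). All of these permutations ran across the litters of a diet. The libraries labelled KO replicate 1 and WT replicate 2 of the 30 ppm diet and WT replicate 2 of the 0.1 ppm diet read 45, 36.36 and 40% at the Tet1 CpG given above, in the range of the HET embryos. The study's own embryo list gives the first of them as HET, against its title. They were also the lowest KO and the highest WT libraries here, at 46.8, 50.4 and 49.3%. Without them the KO embryos had 59.6 to 62.5% and the WT embryos 42.8 to 43.9%, a difference of 17.8 points. This value is a description, since the libraries were left out by a CpG that lies in a hyper tile.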

How the data were processed

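Oxidative bisulfite RRBS libraries of single brains were made by the study. Per the submitters' processing notes the authors trimmed reads with Trim Galore 0.6.10, aligned and called them with Bismark 0.24.1 on mm10, removed duplicates with UMI-tools and used methylKit 1.26.0 in R 4.3.1. The deposited files give, for each CpG, the methylated fraction made by the authors from methylated over all reads, without smoothing or normalisation. The coverage beside it is the count of reads as deposited. Region files of the authors' own comparisons were not used.

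Methylated reads were recovered as fraction times coverage, file positions were raised by 1, and autosomal CpGs with coverage of at least 5 in all 9 libraries were kept. CpG calls were summed over 1 kb tiles or over 1 kb to either side of a gene start (GENCODE models on GRCm38.p6). Regions had at least 3 CpGs and, for tiles, an SD of at least 2 points over embryos. The test was a quasi-binomial logistic model per region with moderated dispersion and Benjamini-Hochberg adjustment over all regions, tested on simulated data, and limma 3.58.1 (R 4.3.3) on logit values was an alternative. Single means were compared by two-sided exact permutation over embryos with python 3.11.15, numpy 2.4.6 and scipy 1.17.1. Depth sets the precision of a region, and PCR copies left in the reads would add error beyond counting. Calls of 1 read at neighbouring CpGs are not independent, and the quasi-binomial test meets this only through its dispersion. Permutation p-values rest on the spread between embryos. In the quasi-binomial test the dispersion of a region was moderated by that of all regions and held at 1 or above. The prior had 21.9 degrees of freedom for tiles and 14.9 for promoters. Deeper libraries weigh more in that test, whereas the stated differences weigh embryos equally. WT replicate 1 had a median of 446 CpG calls per tested tile, and WT replicates 2 to 4 had 138, 69 and 93. Named regions were the 20 largest non-overlapping gains (1 tile per nearest gene), all losses, the 3 largest calls of each gene list, and Tet1. Some gene-level results are not reported here. The members, lists and tests were chosen with earlier results of these data known.

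The TP number in the titles was taken as the litter. Deviations from the group means correlated between -0.00758 and 0.0577 in 6 KO and WT pairs of the same litter, and between -0.0487 and 0.0293 in 14 pairs of different litters. Litter as a block, sex, coverage, thresholds, region size and leaving out embryos were the alternatives.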

Additional observations from a re-analysis of the deposited data

Results flagged for a closer look

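In 9 of 158 sets of 4 or 5 embryo values, 1 embryo stood farther from its group than Dixon's limit allows, where chance alone gives about 1 in 20, or 7.9. KO replicate 2 was the highest of its group in the mean over all promoters, at 9.44% against 9.03% in the next embryo. It was also highest in tiles with 50 or more CpGs (5.01%, next 4.69%) and in tiles under 10% in WT embryos of the other diets (3.25%, next 2.85%). These 3 measures share CpGs and are not independent. The same embryo was highest at the Spatc1 tile (87.2%, next 77.8%) and lowest at the Spaca1 promoter (67.3%, next 73.8%). KO replicate 3 was highest at the Sgo2b promoter (80.9%, next 69.8%). WT replicate 3 was highest at the Stpg4 promoter (36.9%, next 26.6%). WT replicate 4 was lowest at the Arhgap23 tile (17.6%, next 19.7%) and at the Myo3a tile nearest to Gad2 (66.9%, next 82.9%). Of these, the Myo3a tile was the 1 loss, and its adjusted p rose above 0.05 in 3 of the settings tried.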

How the results depend on the processing

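Of the 97 named tiles and 50 named promoters none changed direction in any setting where it was recomputed. Some settings held fewer of them, such as 108 at a coverage of at least 10 and 92 with at least 5 CpGs. On shifted tiles they were not recomputed. In 82 of the values recomputed the adjusted p rose above 0.05, most often at the losses near Trps1, Kcnv1, Chka and Itln1 and at the Zfp42 promoter, and in 2606 it stayed under it, whether or not the difference still reached the set minimum. Counts moved by over 1.5 times in 5 settings. A coverage of at least 10 gave 7034 hyper and 8 hypo of 38037 tested tiles, and at least 5 CpGs gave 5679 and 6 of 27178. Both settings test fewer tiles than the 65004 of the main test, so these counts are not a loss of calls alone. A difference of at least 20 points left 3576 hyper and 1 hypo tiles and 263 hyper and 0 hypo promoters, by construction of the threshold. limma on logit values gave 5 hypo tiles, and the cause was not tested. Leaving out the KO embryos labelled inHB and NTD, with shared CpGs chosen anew, gave 0 hypo promoters (43 lower at an unadjusted p under 0.05 in the quasi-binomial test), and 3 on the CpGs of all 9 embryos, a setting chosen after seeing the data, so the count moved with the CpGs. Shifted tiles, no SD filter, sex as a covariate, the mean of CpG fractions and 500 bp promoters gave counts within 1.5 times. Leaving out each embryo, with shared CpGs chosen anew, gave 9764 to 11199 hyper and 11 to 19 hypo tiles, 659 to 720 hyper and 3 to 5 hypo promoters, and mean differences of 2.72 to 3.01 points. With each library on its own CpGs the mean difference was 0.161 points (exact permutation p = 0.976).

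With litter as a block, 10380 hyper and 13 hypo tiles and 666 hyper and 4 hypo promoters were called, and 10007 of the 10591 hyper tiles kept their call. The mean of within-litter differences in CpG level was 2.79 points (exact permutation p = 0.0833, the smallest that the pairing by litter allows). With the block the adjusted p of 6 named regions rose above 0.05, the losses near Trps1, Chka, Kcnv1, Itln1 and Vmn2r99 and the Zfp42 promoter.

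Read at the 0.1 ppm diet alone and without the library apart at the Tet1 CpG, a setting chosen after seeing the data, the hyper tiles differed by 18.5 points (5 KO against 1 WT embryo, exact permutation p = 0.167, the smallest possible). The library was left out by a CpG inside a hyper tile. Classes of tiles set without the WT libraries apart at that CpG, also chosen after seeing the data, kept the direction of the gain in each class and the exact permutation p of 0.00794. Depth limited the smallest regions most, with 15 CpG calls in the shallowest embryo.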

Other observations

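Some genes held many hyper tiles, listed here by a choice made after their values were seen. A tile inside several genes was counted for each of them. The predicted gene Gm20388 had 138 hyper of 519 tested tiles. It is on chromosome 8 like Gse1, so their counts may share tiles. Gse1, which encodes a coiled-coil protein of a chromatin corepressor complex, had 32 hyper of 74 tested tiles, and the growth factor receptor gene Fgfr2 had 25 of 118. Cux2, a homeobox factor of upper-layer neurons, had 18 of 41 tiles hyper, Rbfox3 17 of 49, and Bcl11b, a zinc finger factor of deep-layer neurons, 9 of 15. The synaptic scaffold genes Shank2 and Bsn had 9 of 17 and 8 of 15. The zinc finger genes Zfhx3 and Casz1 had 15 of 68 and 14 of 30, and Prdm16, a histone methyltransferase family gene, 12 of 49. Camta1 had 13 of 81 (16.05%) and Wwox 8 of 73 (10.96%). Long genes hold more tested tiles, and 16.3% of all tested tiles were hyper.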
